A study of Mus musculus with 5 samples.

Results

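The 8 genes described here encode heat shock proteins and chaperones, namely Hspa1a, Hspa1b, Hspa8, Dnajb1, Dnaja1, Hsp90ab1, Hsp90aa1 and Hsph1. They were taken by name, with earlier results of these data known. They are 8 of the 16498 genes in the single-cell table of 18260 cells from mouse aortic arch. All mice lacked Apoe, the apolipoprotein E gene whose loss raises plasma cholesterol and leads to atherosclerosis. The Apoe-/- libraries (n = 2) came from Oasl1+/+Apoe-/- mice, and the other libraries (n = 3) were labelled Oasl1-/-Apoe-/-, that is, without Oasl1, an interferon-induced gene of the oligoadenylate synthetase-like family, in every cell of the body. All animals were on the C57BL/6 background and ate normal chow for 28 weeks, and each library pooled the arches of 6 mice, so the spread between libraries is the spread between pools. Both groups of aortas were digested with enzymes at body temperature and sorted as live cells before capture with a 3′ droplet kit. The deletion removes the promoter and an early exon of Oasl1, which a 3′ count does not read. Oasl1 had 27 and 16 UMIs (unique molecular identifiers, one for each captured transcript) in the Apoe-/- libraries, against 299, 257 and 315 in the others. These counts run opposite to the labels. They lie outside the deleted part, so they do not show whether that part was present. The cause of this conflict was not tested, and the second group is called "labelled Oasl1-/-Apoe-/-" throughout.

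Heat shock proteins hold other proteins in a foldable state, refold damaged ones and hand the rest to degradation. Members of the HSP70 family bind short hydrophobic stretches of a client and release them in an ATP-driven cycle, J-domain proteins bring clients and start that cycle, HSP110 proteins exchange the nucleotide, and HSP90 dimers mature kinases and steroid receptors. A constitutive set (Hspa8, Hsp90ab1) serves every cell, whereas an inducible set (Hspa1a, Hspa1b, Dnajb1, Hsph1, Hsp90aa1) is switched on by heat shock factor 1 (HSF1) under heat, oxidative stress or toxins. In the artery, inducible HSP70 has been found in cells of atherosclerotic plaques, and enzymatic digestion of tissue can also switch these genes on, together with immediate early genes such as Fos and Egr1. Within the set, Hspa1a and Hspa1b encode the inducible HSP70, Hspa8 the constitutive HSC70, Dnajb1 and Dnaja1 the J-domain proteins, Hsph1 an HSP110, and Hsp90ab1 and Hsp90aa1 the constitutive and inducible cytosolic HSP90.

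In the mouse build GRCm38, Hspa1a lies at chr17:34969190-34972156 and Hspa1b at chr17:34956436-34959238, both on the minus strand, 9951 bases apart. Each has a single exon, and their coding sequences were 99.4% identical, against 74.4% for Hspa1a and Hspa8. Hsp90ab1 lies on the same chromosome (chr17:45567775-45573271, minus) and Hsp90aa1 at chr12:110690605-110702728 (minus), with 75.7% coding identity between them. The other members lie at chr9:40800984-40810087 (Hspa8, plus), chr8:83608193-83612653 (Dnajb1, plus), chr4:40722150-40737149 (Dnaja1, plus) and chr5:149614287-149636376 (Hsph1, minus). For Hspa8, 76.6% of the 50-base words in the last 400 bases of the transcript also occur in processed copies annotated as other genes, so its counts depend on how reads shared with those copies were treated. That share was 9.97% for Hsp90ab1 and 0% for the other members, Hspa1a and Hspa1b included.

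HSF1 binds heat shock elements, which are inverted repeats of the unit GAA. The stretches below are shown because they hold adjoining units in the promoter windows of members, with the units in capitals, 5′ to 3′ on the gene's own strand (RefSeq windows of GRCm38.p6, from 250 bases before to 50 after the start site):
Hspa1a, chr17:34972247-34972266, minus: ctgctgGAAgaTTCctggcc
Hspa1b, chr17:34959329-34959348, minus: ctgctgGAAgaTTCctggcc
Dnaja1, chr4:40722338-40722357, plus: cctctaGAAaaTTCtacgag
Hsph1, chr5:149636356-149636375, minus: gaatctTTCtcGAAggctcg
Hsph1, chr5:149636282-149636306, minus: tgcagaTTCtgGAAagTTCtcctca
Hspa1a and Hspa1b carried the same letters at the same place, with the motif starting at -104 from the start site. In Dnaja1 it started at -124. In Hsph1 a pair of units started at -54 and a triple at +15, or at -33 and +36 from the other start site that RefSeq gives this gene. All are counted from RefSeq start sites, and the gene coordinates printed above, from another annotation, reach further upstream in Dnaja1 and Hsph1, so that these stretches lie inside the gene there. Windows were read for 5 of the 8 members, all but Hspa8, Hsp90ab1 and Hsp90aa1. A pair of adjoining units, GAANNTTC or TTCNNGAA searched on both strands, stood in 4 of these 5 (80.0%), against 17.0% of the 27025 genes with a window, and Dnajb1 was the member without one. A run of 3 adjoining units, GAANNTTCNNGAA or TTCNNGAANNTTC (each of which also holds both pairs), stood in 1 of 5 members, Hsph1, against 0.662% of all genes. Among the 16 immediate early genes with a window, 2 (12.5%) held a pair and 0 a triple. These matches describe letters in a window and were not tested as binding sites.

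Libraries held 16959976 to 19813039 UMIs, with a median per cell of 4495 to 4757 in the Apoe-/- and 4883 to 5186.5 in the labelled libraries. Levels are mean UMIs per 10000 UMIs of a cell, averaged over the cells of a library, and n is always 2 Apoe-/- and 3 labelled libraries, with values listed in replicate order. Cells were assigned to types by marker genes, none of them a chaperone or an immediate early gene. Smooth muscle (10327 cells), macrophage (2951), endothelial (1361), fibroblast (872), T/NK (619), monocyte (325) and dendritic (178) gates had at least 20 cells in every library, and the smallest of these library counts was 25 dendritic cells. Some gate markers themselves differed between the groups: 4 of 8 in smooth muscle cells, 6 of 8 in macrophages, 3 of 6 in monocytes, 2 of 8 in fibroblasts and in T/NK cells, 2 of 9 in endothelial cells and 0 of 8 in dendritic cells. Only 40.4% of the gated fibroblasts lay in clusters named fibroblast, so that class is the least certain. Libraries shared 165 cell barcodes (331 cells). Differences below are labelled Oasl1-/-Apoe-/- minus Apoe-/- on log2(level + 0.05), with standard error, and adjusted p-values are from limma over all genes of the fit.

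Each member had its own order of cell types. Hspa1a was highest in endothelial cells, 15.3 ± 2.35 (SD, n = 5 libraries), followed by T/NK cells (11.3 ± 6.16) and dendritic cells (10.2 ± 3.79), whose libraries overlapped. Monocytes (5.73), macrophages (4.92), fibroblasts (4.74) and smooth muscle cells (4.54) did not differ from their neighbours in this order beyond the spread, whereas smooth muscle cells lay above B cells (1.05) in every library without overlap, and neutrophil-gated cells were lowest (0.468). The wide spread in T/NK cells is the difference between the groups described below. Hspa1b was likewise highest in endothelial cells (1.49 ± 0.465), without overlap with smooth muscle cells next in order (0.632 ± 0.194), and it was listed at 0 in every library of neutrophil-gated cells.

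Constitutive Hspa8 was highest in monocytes (37.5 ± 8.09), dendritic cells (36.9 ± 9.27) and T/NK cells (34.1 ± 8.18), which overlapped. Endothelial cells were low for it (16.2 ± 4.40), so the endothelium headed the order of the inducible HSP70 genes and stood eighth of 9 types for the constitutive one. Dnajb1 was highest in T/NK cells, at 12.1 ± 3.98, with B cells next (3.28 ± 3.97) and macrophages (0.952 ± 0.425) and neutrophil-gated cells (0.313 ± 0.371) last. T/NK cells also headed the orders of Dnaja1 (6.25 ± 0.722), Hsp90ab1 (20.1 ± 3.61) and Hsp90aa1 (13.6 ± 3.01), and each of these overlapped with the type next in order. Hsph1 was the member highest in smooth muscle cells (1.86 ± 0.307), followed by T/NK cells (1.36 ± 0.690) and endothelial cells (0.796 ± 0.408). Hsp90ab1 lay between 11.1 and 20.1 in all types but neutrophil-gated cells (3.46 ± 2.25). Across the 35 profiles of 7 types in 5 libraries, which share libraries and depth, Pearson's r was 0.88 for Dnajb1 with Dnaja1, 0.69 for Hspa1a with Hspa1b and -0.14 for Hspa1b with Hspa8.

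**Figure D1:**
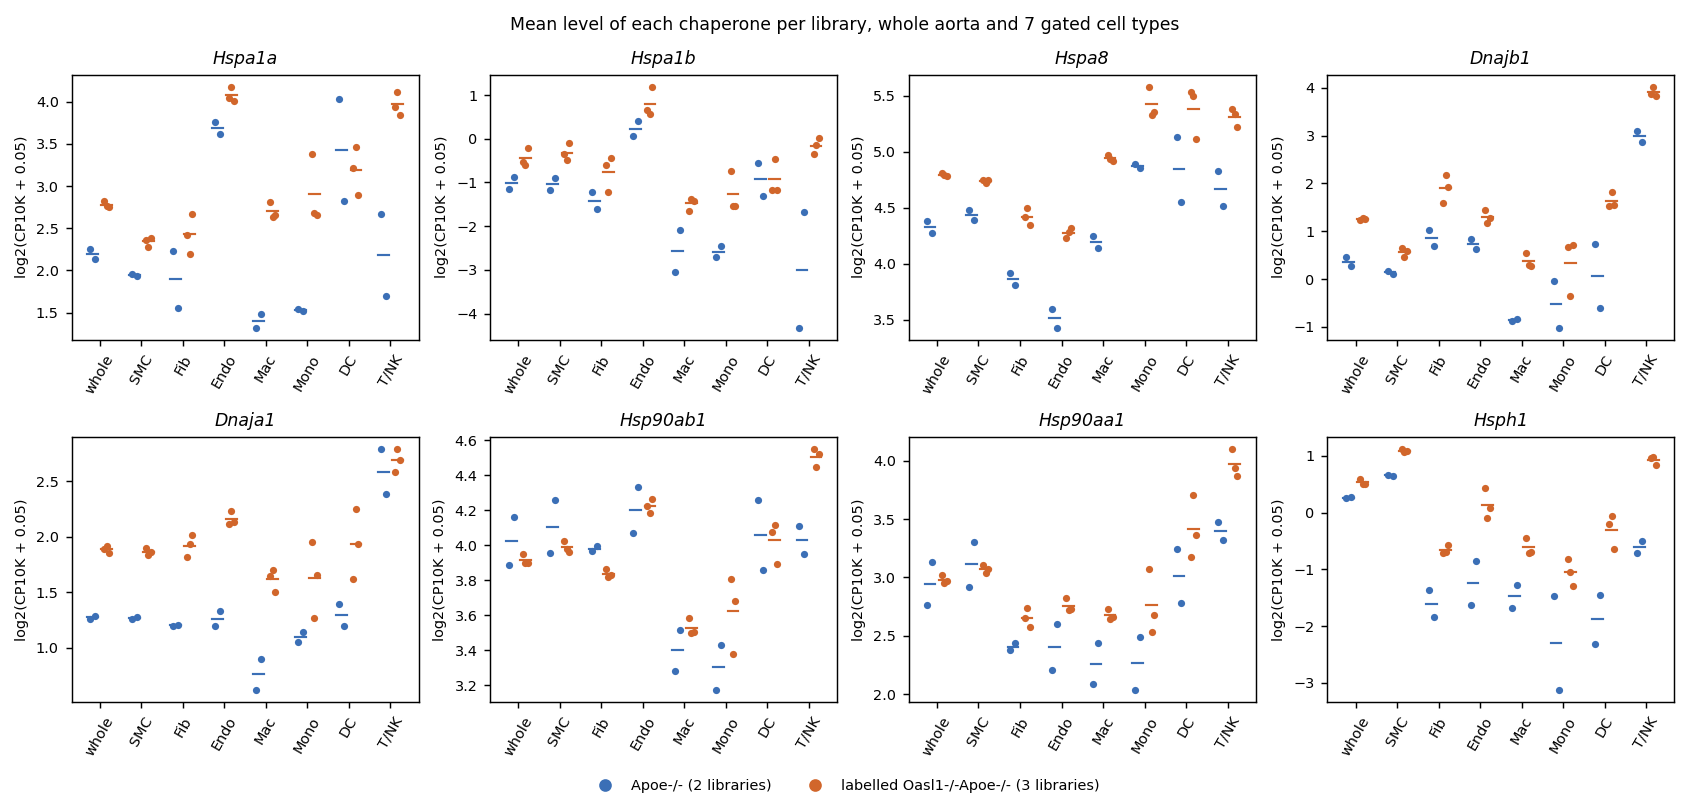
Level of each member (UMIs per 10000, log scale) in whole aorta and the 7 gated cell types (SMC, smooth muscle; Fib, fibroblast; Endo, endothelial; Mac, macrophage; Mono, monocyte; DC, dendritic). Points are libraries, blue for Apoe-/- (n = 2) and orange for labelled Oasl1-/-Apoe-/- (n = 3), and bars are group means. Hspa1a in macrophages sits at 2.45 and 2.75 in blue and between 6.14 and 6.98 in orange.

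In the whole aorta, 6 of the 8 members were higher in the labelled libraries and 0 lower, where 20.5% of all 9836 genes tested passed the threshold upwards and 20.6% downwards. The 6 were both inducible HSP70 genes, HSC70, both J-domain genes and the HSP110 gene, and neither HSP90 gene passed. The same 6 were higher without overlap and 0 lower, against 28.4% and 33.9% of all genes. The median difference of the members was 0.52, against -0.03 over all genes tested. In a mixture, fewer cells of a type and less RNA per cell cannot be told apart, and smooth muscle made up 66.6% and 68.0% of the cells in the Apoe-/- and 47.5%, 47.3% and 47.2% in the labelled libraries (macrophages 9.93% and 9.08% against 22.03%, 21.01% and 22.52%), so each gated type was fitted by itself.

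Hspa1a, the main stress-inducible HSP70, was higher in the labelled libraries in 5 of 7 cell types. In macrophages its level was 2.45 and 2.75 in the Apoe-/- libraries and 6.98, 6.14 and 6.26 in the labelled ones, 2.48-fold by the means and without overlap, a difference of 1.30 ± 0.07 (adjusted p = 6.05e-09). T/NK cells went from 6.30 and 3.19 to 15.3, 17.3 and 14.3, a difference of 1.78 ± 0.18 (adjusted p = 6.57e-07) and 3.29-fold by the means. Monocytes had 2.87 and 2.81 against 10.3, 6.38 and 6.28 (1.38 ± 0.19, adjusted p = 0.000202). This monocyte call was lost with cells reduced at random to 1000 UMIs and in cells of low immediate early level (adjusted p up to 0.415). In these leukocytes every labelled library exceeded every Apoe-/- library. In vessel wall cells the difference was 0.40 ± 0.05 in smooth muscle cells (3.84 and 3.77 against 5.10, 4.81 and 5.19, adjusted p = 5.60e-05) and 0.39 ± 0.08 in endothelial cells (13.5 and 12.2 against 16.5, 18.1 and 16.0, adjusted p = 0.000533). Fibroblasts overlapped (4.63 and 2.90 against 5.31, 4.54 and 6.33), with a difference of 0.54 ± 0.17 (adjusted p = 0.128) that passed only without Apoe-/- replicate 1 (0.87, adjusted p = 0.00844). Dendritic cells were the type with a negative value (-0.24 ± 0.29, adjusted p = 0.889), where Apoe-/- replicate 1 was highest at 16.3 and replicate 2 lowest at 7.01.

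Hspa1b, the neighbouring gene with a nearly identical coding sequence, had far fewer UMIs. It rose in the whole aorta from 0.398 and 0.499 to 0.638, 0.614 and 0.814 (0.57 ± 0.11, adjusted p = 0.00293) and in smooth muscle cells from 0.396 and 0.490 to 0.730, 0.659 and 0.886 (0.71 ± 0.10, adjusted p = 0.000271). Macrophages had 0.0717 and 0.186 against 0.269, 0.336 and 0.324 (1.08 ± 0.22, adjusted p = 0.00286), and without Apoe-/- replicate 1 the difference was 0.61 (adjusted p = 0.0108). All 3 comparisons were without overlap. Endothelial cells had 0.990 and 1.27 against 1.52, 1.42 and 2.24 (0.57 ± 0.16, adjusted p = 0.0273), and this call was lost without Apoe-/- replicate 1 (0.40, adjusted p = 0.419) or labelled replicate 3 (0.38, adjusted p = 0.340). T/NK cells of Apoe-/- replicate 1 held no Hspa1b UMI, replicate 2 had 0.262, and the labelled libraries had 0.739, 0.851 and 0.970. Their difference of 2.85 ± 0.53 (adjusted p = 0.00334) depends on the added 0.05, was 1.53 (adjusted p = 0.0347) without Apoe-/- replicate 1, and lost its call without labelled replicate 1 (adjusted p = 0.134), 2 (adjusted p = 0.148) or 3 (adjusted p = 0.245).

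Hspa8, the constitutive HSC70, was the member called in the most cell types, 6 of 7. Endothelial cells had the largest of its differences, from 12.1 and 10.7 to 18.8, 19.4 and 19.9 (0.76 ± 0.07, adjusted p = 2.13e-10), 1.70-fold by the means. Macrophages followed with 19.0 and 17.6 against 31.3, 30.7 and 30.2 (0.75 ± 0.05, adjusted p = 3.32e-08). T/NK cells had 28.4 and 22.8 against 41.7, 40.4 and 37.4 (0.64 ± 0.09, adjusted p = 0.000196). In all 3 the lowest labelled library lay well above the higher Apoe-/- library. Fibroblasts rose by 0.56 ± 0.08 (15.1 and 14.0 against 21.3, 22.6 and 20.4, adjusted p = 0.00134) and smooth muscle cells by 0.30 ± 0.04 (22.3 and 20.9 against 26.9, 26.3 and 26.8, adjusted p = 0.000216). Monocytes rose by 0.55 ± 0.10 (29.7 and 28.9 against 47.9, 40.3 and 40.9, adjusted p = 0.00231), a call that was lost without labelled replicate 1 (0.47, adjusted p = 0.0581). Dendritic cells overlapped, with 35.1 and 23.5 against 46.3, 45.1 and 34.7 (0.54 ± 0.23, adjusted p = 0.637).

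Dnajb1, the J-domain protein of the HSF1 response, was higher in the whole aorta by 0.90 ± 0.06 (1.32 and 1.16 against 2.31, 2.39 and 2.35, adjusted p = 1.24e-06), the largest whole-aorta difference of the 8. With every library given the same cell type shares, the Dnajb1 value was 0.69 (adjusted p = 2.18e-05), below the 0.75 of Hspa1b. In macrophages Dnajb1 went from 0.492 and 0.509 to 1.42, 1.18 and 1.16 (1.24 ± 0.11, adjusted p = 6.92e-07) and in fibroblasts from 1.998 and 1.555 to 2.98, 4.48 and 3.74 (1.04 ± 0.16, adjusted p = 0.00217). T/NK cells, already highest for this gene, went from 8.56 and 7.25 to 14.6, 16.2 and 14.1 (0.92 ± 0.12, adjusted p = 4.84e-05). None of these overlapped. Smooth muscle cells rose by 0.42 ± 0.06 (adjusted p = 0.000372) and endothelial cells by 0.56 ± 0.13 (adjusted p = 0.00453), the latter lost without Apoe-/- replicate 2 (adjusted p = 0.134) or labelled replicate 1 (adjusted p = 0.0690). In dendritic cells 1.62 and 0.605 stood against 2.83, 3.50 and 2.85 without overlap, and the difference of 1.57 ± 0.36 just missed the threshold (adjusted p = 0.0505), passing without Apoe-/- replicate 1 (2.24, adjusted p = 0.0202).

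Dnaja1, which serves HSC70 in unstressed cells, rose in smooth muscle cells from 2.35 and 2.37 to 3.68, 3.52 and 3.57 (0.60 ± 0.05, adjusted p = 5.85e-07) and in endothelial cells from 2.23 and 2.47 to 4.28, 4.63 and 4.34 (0.90 ± 0.11, adjusted p = 5.67e-08). Macrophages (0.86 ± 0.09, adjusted p = 6.59e-06) and fibroblasts (0.72 ± 0.12, adjusted p = 0.00263) were also called. The fibroblast call was lost with cells reduced at random to 1000 UMIs and in cells of low immediate early level (0.19, adjusted p = 0.643). T/NK cells, the type with the highest level, overlapped for Dnaja1 at 6.87 and 5.15 against 5.94, 6.87 and 6.40 (0.10 ± 0.15, adjusted p = 0.844). Among the genes with a call in most types, it was thus the one for which T/NK cells had none.

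Hsph1, the HSP110 that recycles HSP70, was the member without overlap in all 7 types. Endothelial cells had 0.275 and 0.507 against 1.31, 0.886 and 1.01 (1.37 ± 0.20, adjusted p = 3.75e-06). Smooth muscle cells, where it was highest, went from 1.54 and 1.51 to 2.13, 2.04 and 2.08 (0.44 ± 0.05, adjusted p = 3.86e-05), a call lost in cells with a mitochondrial share under 5% (0.24, adjusted p = 0.199). T/NK cells had 0.563 and 0.654 against 1.903, 1.928 and 1.752 (1.54 ± 0.25, adjusted p = 0.000810), a call lost without labelled replicate 2 (adjusted p = 0.0509) or 3 (adjusted p = 0.0598). Macrophages rose by 0.86 ± 0.14 (adjusted p = 0.000514). The fibroblast value of 0.95 ± 0.22 (adjusted p = 0.0309) lost its call without Apoe-/- replicate 2 (0.71, adjusted p = 0.0654) or on leaving out any 1 labelled replicate (adjusted p = 0.124, 0.123 and 0.189). The monocyte value of 1.24 ± 0.50 (adjusted p = 0.225) passed without Apoe-/- replicate 1 (2.07, adjusted p = 0.0239).

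The HSP90 genes had the fewest calls, 1 for Hsp90ab1 and 3 for Hsp90aa1. Hsp90ab1 measured 14.7 and 17.9 in Apoe-/- whole aorta against 15.4, 14.8 and 14.9 (-0.11 ± 0.07, adjusted p = 0.226) and 15.5 and 19.1 against 16.2, 15.7 and 15.6 in smooth muscle cells (-0.12 ± 0.06, adjusted p = 0.306). The Apoe-/- replicates differed more from each other than the labelled ones did, and without Apoe-/- replicate 1 both differences passed as lower (-0.25, adjusted p = 0.000317, and -0.27, adjusted p = 0.000118). Fibroblasts were lower without overlap (15.6 and 15.9 against 14.5, 14.0 and 14.2, -0.14 ± 0.08, adjusted p = 0.408), the only such pair in the set. Its call was in T/NK cells, from 17.2 and 15.4 to 23.4, 21.8 and 22.9 (0.48 ± 0.10, adjusted p = 0.00735), and it was lost without labelled replicate 1 (adjusted p = 0.172), 2 (adjusted p = 0.0848) or 3 (adjusted p = 0.197). In macrophages the value of 0.13 ± 0.07 (adjusted p = 0.210) passed without Apoe-/- replicate 2 (0.25, adjusted p = 0.00204).

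Inducible Hsp90aa1 had 6.75 and 8.69 in Apoe-/- whole aorta against 8.07, 7.67 and 7.76 (0.03 ± 0.08, adjusted p = 0.791), so the labelled libraries lay between the Apoe-/- ones, and in smooth muscle cells likewise (7.53 and 9.81 against 8.56, 8.16 and 8.38, -0.04 ± 0.08, adjusted p = 0.818). Which Apoe-/- library was kept set the direction: without replicate 1 the whole-aorta value was -0.15 (adjusted p = 0.0121) and without replicate 2 it was 0.21 (adjusted p = 0.00205), and in smooth muscle cells these were -0.23 (adjusted p = 0.000998) and 0.15 (adjusted p = 0.0312). Macrophages rose from 4.19 and 5.37 to 6.596, 6.204 and 6.260 (0.42 ± 0.08, adjusted p = 0.00254, and 0.24, adjusted p = 0.00778, without Apoe-/- replicate 1). In T/NK cells 11.1 and 9.94 stood against 17.1, 15.3 and 14.6 (0.58 ± 0.11, adjusted p = 0.00500), a call lost without labelled replicate 1 (adjusted p = 0.172), 2 (adjusted p = 0.0929) or 3 (adjusted p = 0.107). Endothelial cells (0.35 ± 0.10, adjusted p = 0.0303) lost theirs without Apoe-/- replicate 1 (0.16, adjusted p = 0.665) or labelled replicate 1 (0.32, adjusted p = 0.177) or 3 (0.37, adjusted p = 0.0560), and had 0.55 without Apoe-/- replicate 2. The monocyte value of 0.50 ± 0.18 (adjusted p = 0.175) passed without Apoe-/- replicate 2 (0.73, adjusted p = 0.0435).

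Of the 56 pairs of a member and a cell type, 33 passed the threshold as higher and 0 as lower, and 51 had a positive difference. The members were chosen with earlier results of these data known, so these counts beside the shares of all genes describe the set only. By type, macrophages had 7 of 8 members called where 9.66% of all genes passed as higher, endothelial cells 7 (2.45%), T/NK cells 7 (0.945%), smooth muscle cells 6 (5.58%), fibroblasts 4 (1.86%), monocytes 2 (2.09%) and dendritic cells 0 (0.256%). The members' median difference was 0.86 in macrophages, 0.78 in T/NK cells, 0.71 in monocytes, 0.61 in fibroblasts, 0.57 in endothelial cells, 0.47 in dendritic cells and 0.41 in smooth muscle cells, while the medians over all genes lay between -0.01 and 0.09. Groups did not overlap, labelled higher, in 42 pairs and, labelled lower, in 1. The shares of all genes without overlap as higher and as lower were 25.9% and 18.6% in macrophages, 22.5% and 15.8% in smooth muscle cells, 17.9% and 15.4% in fibroblasts, 16.6% and 14.8% in monocytes, 16.3% and 11.3% in T/NK cells, 14.3% and 13.8% in endothelial cells and 13.2% and 8.83% in dendritic cells. Monocytes and dendritic cells are the types with the fewest cells, 41 to 48 and 25 to 46 in the Apoe-/- libraries. In dendritic cells 3 of 8 members, Dnajb1, Dnaja1 and Hsph1, were higher without overlap although none passed the threshold.

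**Figure D2:**
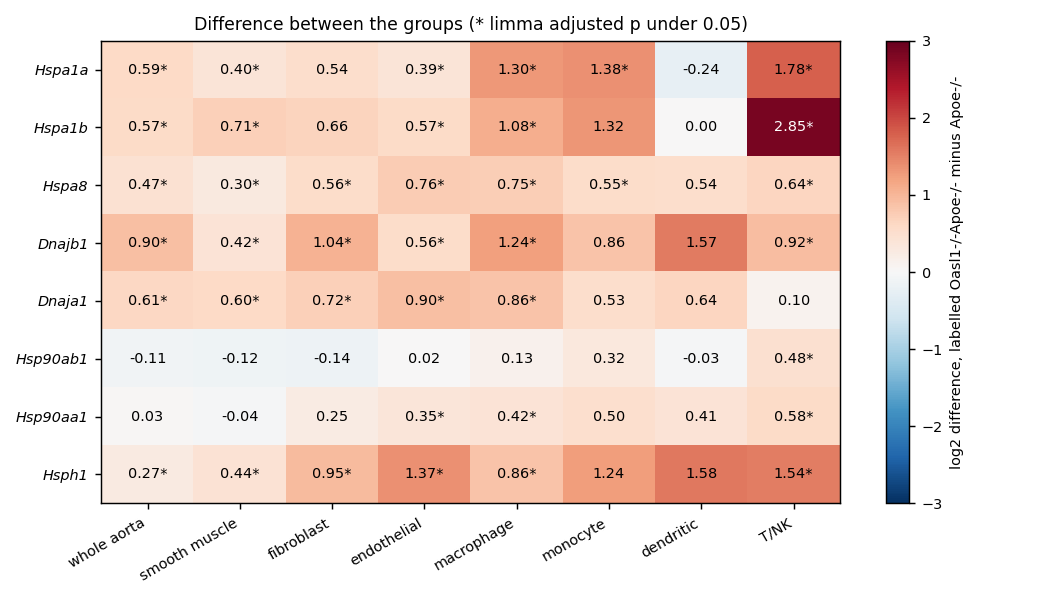
Difference in level of each member (rows; labelled Oasl1-/-Apoe-/- minus Apoe-/-, log2) in whole aorta and 7 cell types (columns), with the value printed in each cell, red for higher and blue for lower in the labelled libraries. Stars mark values past the limma threshold (adjusted p under 0.05), and Hspa1a in T/NK cells (1.78) and macrophages (1.30) is starred and red, while both HSP90 genes in smooth muscle cells (-0.12 and -0.04) are pale and without a star.

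Clusters built without the members, the other chaperones and the immediate early genes gave a second division of the cells. In the 16 clusters with at least 20 cells in every library, Hspa8 was higher in the labelled libraries without overlap in 16, Hsph1 in 15, Hspa1a, Hspa1b and Dnaja1 in 14 each and Dnajb1 in 12. Hsp90aa1 was so in 6, and Hsp90ab1 in 3 with 1 lower. Over all genes with a mean of at least 0.05 and all 16 clusters, 15% were higher without overlap (10.6% to 19.8% by cluster) and 12.9% lower. The first 6 genes had a positive difference in all 16 clusters, Hsp90aa1 in 13 and Hsp90ab1 in 7.

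Whether the difference itself differed between cell types was tested against smooth muscle cells, gene by gene over the same 5 libraries. In macrophages the difference exceeded that in smooth muscle cells by 0.90 ± 0.12 for Hspa1a (adjusted p = 0.0168) and by 0.82 ± 0.12 for Dnajb1 (adjusted p = 0.0235), where 4.05% of all genes passed this test. Both calls were lost on leaving out any of the 5 libraries, with values of 0.80 to 0.99 and 0.76 to 0.88 and adjusted p from 0.0510 to 0.0754 and from 0.0661 to 0.0924. Hspa8 (0.44, adjusted p = 0.0614) and Hsp90aa1 (0.46, adjusted p = 0.0713) did not pass. No member passed in another type, where 0.0236% of genes passed in fibroblasts, 0.0364% in endothelial cells and 0.0% in the rest, and T/NK cells had 1.39 for Hspa1a (adjusted p = 0.344). With all 5 libraries and a pseudocount of 0.2, Hspa8 (0.44, adjusted p = 0.00582) and Hsp90aa1 (0.44, adjusted p = 0.00678) passed too, and with the replicate block Hspa1a (0.94, adjusted p = 0.0385) was the 1 member that did.

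Shares of cells with a UMI were compared for Hspa1a, Hspa1b, Dnajb1 and Hsph1. After every cell was thinned to 1000 UMIs, which left out 245 Apoe-/- and 311 labelled cells with fewer, 12.97% and 11.61% of macrophages in the Apoe-/- libraries had a Hspa1a UMI, against 25.5%, 24.3% and 25.2% in the labelled ones. At the cells' own depth these shares were 27.7% and 22.3% against 46.7%, 41.9% and 47.6%. T/NK cells had 10.4% and 8.57% against 32.2%, 32.1% and 31.5%, endothelial cells 46.8% and 45.0% against 59.5%, 61.3% and 56.3%, and smooth muscle cells 27.3% and 25.6% against 32.4%, 31.6% and 34.8%, all thinned. None of these overlapped. Hsph1 in T/NK cells went from 3.90% and 5.71% to 19.6%, 16.4% and 16.1%, and Dnajb1 there from 32.5% and 28.6% to 36.4%, 42.1% and 42.7%. Over Hspa1a, Hspa1b, Dnajb1 and Hsph1 in the 7 types, 24 of 28 pairs did not overlap with the labelled libraries higher and 0 with them lower, thinned and unthinned alike. Over all genes tested and the 7 types, 13.6% of shares were higher without overlap and 11.6% lower after thinning, and 32.1% and 6.67% at the cells' own depth. With 2 against 3 libraries the exact two-sided permutation test of the absolute difference cannot give p below 0.1, which the named thinned shares had (0.152 after adjustment over 32 comparisons), except Dnajb1 in T/NK cells (p = 0.2 by the exact test).

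Free RNA in droplets sets a floor for such shares. In neutrophil-gated cells, a type with little of these transcripts, 2 of 49 cells deep enough for thinning had a Hspa1a UMI, 4.08% with a Wilson 95% interval of 1.13% to 13.7%, and 1 of 49 a Dnajb1 or a Hsph1 UMI, 2.04%. For Hspa1b it was 0 of 49, which allows up to 7.27% by the same interval. The median depth of these cells was 980.5 UMIs before thinning, against 1721.5 to 1913.5 in labelled T/NK cells. Intervals cover counting error only. Hspa1a shares in Apoe-/- macrophages and T/NK cells lie inside the neutrophil interval, which is wide and pools both groups. Those in the labelled libraries lie above it. Of the 49 cells, 10 were Apoe-/-, with Hspa1a in 0, which allows up to 27.8%, so no floor could be set for each group. In B cells 4 of 98 had a Hspa1a UMI (4.08%, interval 1.60% to 10.0%). The Apoe-/- macrophage shares lie above that interval, and the Apoe-/- T/NK shares on either side of its upper end. In Apoe-/- cells of low and high immediate early level, Hspa1a was 0.663 and 4.55 in macrophages, and 1.09 and 8.50 in T/NK cells. The part of free RNA in these shares and levels was not tested.

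Markers of other cells and cell quality also moved with the group. Within the gated types, summed haemoglobin genes were between 1.403 and 2.337 per 10000 UMIs in the Apoe-/- libraries and between 0.192 and 0.844 in the labelled ones. In macrophages the 8 smooth muscle markers summed to 5.07 and 5.32 against 2.97, 2.33 and 2.11, and in smooth muscle cells the 8 macrophage markers to 0.539 and 0.472 against 1.147, 1.201 and 1.275. Summed mitochondrial transcripts in macrophages were 232 and 244 against 210, 215 and 204, and in smooth muscle cells 564 and 561 against 631, 618 and 624. Gated fibroblasts held a median of 4234 to 4340.5 UMIs in Apoe-/- and 6235 to 6746 in labelled libraries. The part of these in the members' differences was not tested beyond 2 alternatives: of the 56 pairs of member and cell type, 30 rather than 33 were called in cells with a mitochondrial share under 5%, and 32 with totals free of mitochondrial, haemoglobin and ribosomal genes. The calls lost under the first were Hsph1 in smooth muscle cells and, in endothelial cells, Hspa1a (0.24, adjusted p = 0.0788), Hspa1b (0.37, adjusted p = 0.252) and Dnajb1 (0.38, adjusted p = 0.116), and Dnajb1 in dendritic cells passed (1.59, adjusted p = 0.0422).

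Immediate early genes, the first transcripts made after almost any stimulus and the usual sign of stress from digestion, were set beside the members. Their 20 genes summed, in macrophages, to 79.9 and 80.2 per 10000 UMIs in the Apoe-/- and 112, 110 and 116 in the labelled libraries. Endothelial cells had 201 and 201 against 176, 175 and 177, fibroblasts 181 and 178 against 151, 155 and 158, and smooth muscle cells 191 and 187 against 180, 176 and 178. None of these overlapped, and macrophages stood opposite to the wall cells. The make-up of the types in clusters moved too. A macrophage cluster with C1qa and Ccl8 held 3.24% and 2.77% of the cells of Apoe-/- libraries, against 13.4%, 13.7% and 14.4% in labelled ones. Another with Gpnmb and Trem2 held 3.97% and 4.22%, against 3.85%, 3.49% and 4.65%. The part of such shifts in these sums, or in the test of macrophages against smooth muscle cells, was not tested. The 8 members summed to 37.6 and 39.9 against 62.3, 59.5 and 58.9 in macrophages, to 52.1 and 54.8 against 70.6, 71.2 and 71.7 in endothelial cells, to 45.3 and 42.5 against 55.0, 57.0 and 55.8 in fibroblasts and to 54.5 and 59.0 against 64.9, 62.5 and 63.9 in smooth muscle cells. The members' sum was thus higher in all 4 types. Immediate early transcripts were higher beside it in macrophages and lower in endothelial cells, fibroblasts and smooth muscle cells. The sum weighs members by their level: in smooth muscle cells the Apoe-/- and labelled means of Hspa8 were 21.6 and 26.7. Those of Hsp90ab1 there were 17.3 and 15.8, and those of Hsp90aa1 8.67 and 8.37. In T/NK cells both sums were higher, 80.2 and 80.0 against 95.04, 101.2 and 90.48 for immediate early genes and 79.0 and 64.6 against 121, 121 and 112 for the members.

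**Figure D3:**
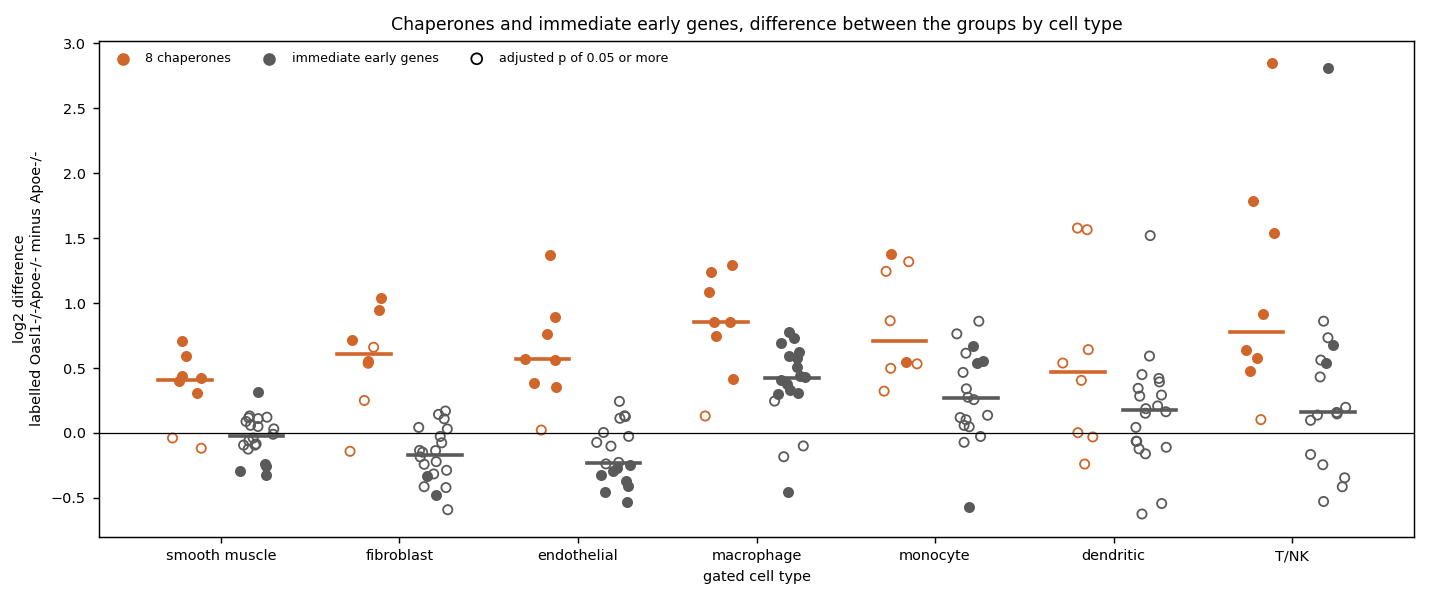
Difference (labelled Oasl1-/-Apoe-/- minus Apoe-/-, log2) of each of the 8 members (orange) and of each immediate early gene tested (grey) in the 7 cell types, 1 point for each gene, filled where limma's adjusted p was under 0.05, with bars at the medians. In endothelial cells 7 orange points are filled above 0 and 8 grey points are filled below 0, and in macrophages 7 orange and 14 grey points are filled above 0.

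Single immediate early genes followed their sums. In macrophages 14 of 18 tested were higher and 1 lower, in endothelial cells 0 higher and 8 of 18 lower, in fibroblasts 0 and 2 of 20, in smooth muscle cells 1 and 4 of 20, in T/NK cells 3 of 17 and 0, in monocytes 3 and 1 of 18, and in dendritic cells 0 and 0 of 20. The shares of all genes called as lower were 6.53%, 0.972%, 1.22%, 2.57%, 0.348%, 1.21% and 0.0539% in that order of types. Fos, a subunit of the AP-1 factor, rose in macrophages from 11.6 and 10.6 to 17.3, 15.7 and 17.2 (0.59 ± 0.06, adjusted p = 3.80e-06). Dusp1, a phosphatase of MAP kinases, rose there by 0.78 ± 0.07 (adjusted p = 4.31e-07), Jund by 0.43 ± 0.06 (adjusted p = 6.01e-05) and Ier2 by 0.58 ± 0.08 (adjusted p = 7.09e-05), while Ier3 fell by 0.46 on the log2 scale (adjusted p = 0.000586). Nr4a1, an orphan nuclear receptor, rose in macrophages (0.38 ± 0.08, adjusted p = 0.00374) and fell in smooth muscle cells (-0.24 ± 0.04, adjusted p = 0.00168) and endothelial cells (-0.54 ± 0.11, adjusted p = 0.000592, and -0.43, adjusted p = 0.0547, without Apoe-/- replicate 2). Egr1 passed in the whole aorta (-0.27 ± 0.04, adjusted p = 0.000340) and in none of the 7 types. Whether these differences differ between types was not tested.

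Other calls for immediate early genes rested on single libraries. In endothelial cells Fos (-0.25, adjusted p = 0.0203) was lost without Apoe-/- replicate 1 (-0.16, adjusted p = 0.332) or labelled replicate 1 (-0.20, adjusted p = 0.186) or 2 (-0.23, adjusted p = 0.117). In fibroblasts Fos (-0.33, adjusted p = 0.0260) was lost on leaving out any 1 labelled replicate (adjusted p = 0.0856, 0.124 and 0.118). In monocytes Fos (0.55, adjusted p = 0.0175) and Dusp1 (0.54, adjusted p = 0.0237) were lost without Apoe-/- replicate 2 (0.36, adjusted p = 0.153, and 0.36, adjusted p = 0.165) and without each labelled replicate. In T/NK cells Ier3 went from 0.0646 and 0.0630 to 0.612, 1.07 and 0.635 (2.81 ± 0.44, adjusted p = 0.000539) and was lost without labelled replicate 2 (2.57, adjusted p = 0.0669) or 3 (2.92, adjusted p = 0.0586), as were Dusp1 (0.67, adjusted p = 0.00681) and Jund (0.54, adjusted p = 0.0113) on leaving out any 1 labelled replicate.

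Cells of each library and type were then divided at the median of their summed immediate early level, and the members were read in both parts. In macrophages of the lower part Hspa1a averaged 0.663 in the Apoe-/- and 2.78 in the labelled libraries, and in the upper part 4.55 and 10.1, so it was higher in cells with more immediate early transcripts and higher in the labelled libraries in either part (differences of 1.99 and 1.15). T/NK cells of the lower part had 1.09 against 7.77 and those of the upper part 8.50 against 23.5. Hspa1a was higher in the upper part in 5 of 5 libraries in macrophages, T/NK, endothelial cells and fibroblasts, whereas smooth muscle cells had 3.79 against 5.12 in the lower and 3.82 against 4.93 in the upper part, and their upper part was higher in 3 of 5 libraries, by -0.03 ± 0.10 (SD) on average. Smooth muscle cells thus had about the same Hspa1a level whatever their immediate early level, with the same direction between groups. In endothelial cells of the lower part Hspa1a was 7.90 against 9.51 (0.27, adjusted p = 0.322), and in those of the upper part 17.9 against 24.2.

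Hspa8 varied less than Hspa1a with immediate early level in macrophages, with 16.0 against 26.3 in the lower and 20.6 against 35.2 in the upper part. The same held in endothelial cells, with 10.8 against 18.0 and 11.97 against 20.8. In smooth muscle cells Hspa8 varied more than Hspa1a, with 19.6 against 24.4 and 23.6 against 28.9. Its upper part was higher there in 5 of 5 libraries, by 0.25 ± 0.05 (SD) on average. Dnajb1 in fibroblasts had 0.725 against 1.05 in the lower part (adjusted p = 0.472) and 2.83 against 6.43 in the upper part. In the cells of the lower part alone, 6 of 8 members still passed as higher in the whole aorta, where 15.2% of all genes did, and 21 of 56 pairs in the cell types, where 2.1% of all genes did over the 7 types, from fewer cells per library than the 33 of all cells. Each library and type was cut at its own median, so the parts are not matched between the groups in immediate early level. The part of digestion in these differences was not tested.

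**Figure D4:**
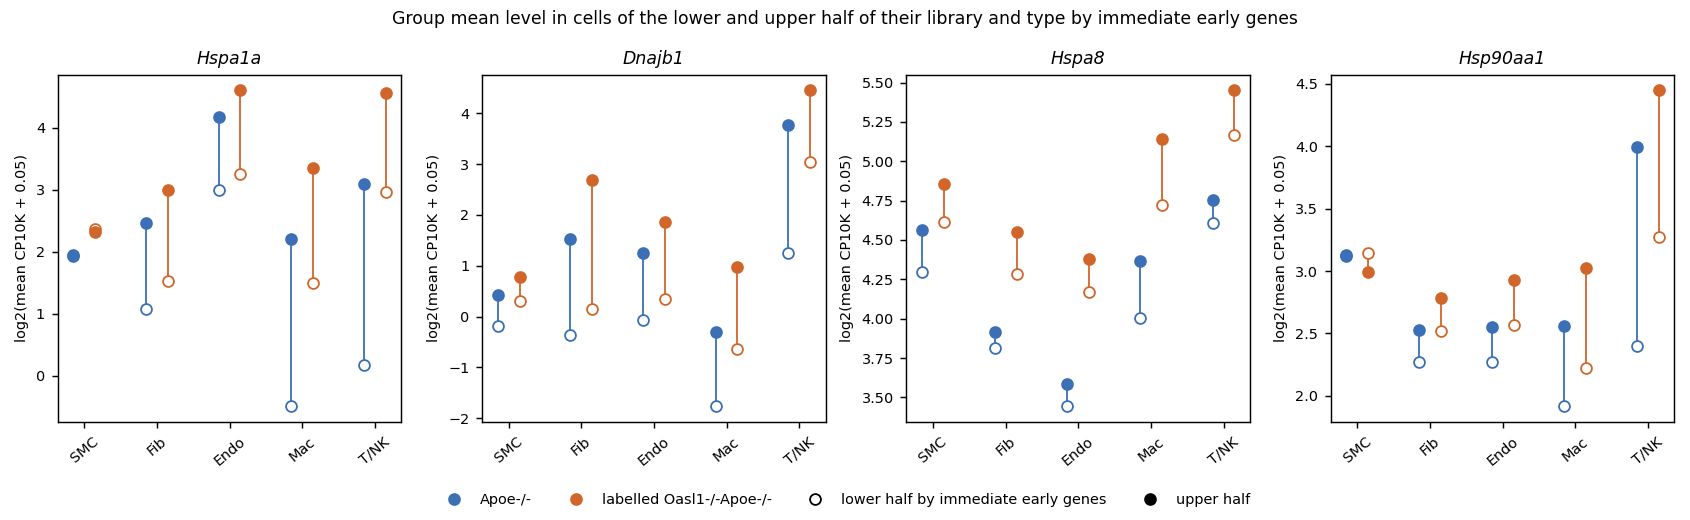
Group mean level (UMIs per 10000, log scale) of Hspa1a, Dnajb1, Hspa8 and Hsp90aa1 in 5 cell types, in cells at or below (open) and above (filled) the median immediate early level of their library and type, blue for Apoe-/- and orange for labelled Oasl1-/-Apoe-/- libraries. Hspa1a in macrophages is at 0.663 and 2.78 in the open and 4.55 and 10.1 in the filled points.

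Beyond the members, 55 other chaperones and cofactors were in the table. As higher and lower, 17 and 0 of 55 passed in smooth muscle cells, 9 and 0 of 54 in endothelial cells, 7 and 0 of 55 in fibroblasts, 4 and 5 of 49 in macrophages, 2 and 0 of 50 in T/NK cells, and 0 and 0 in monocytes and dendritic cells. Over all genes 5.58% passed as higher in smooth muscle cells, 2.45% in endothelial cells, 1.86% in fibroblasts, 9.66% in macrophages and 0.945% in T/NK cells, and 6.53% as lower in macrophages. These shares are the background for the groups of chaperones that follow too. Macrophages, where the members' median difference was largest, had a median of 0.01 over these genes, and smooth muscle cells, where it was smallest, had 0.11.

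Among cytosolic cofactors, which hand clients between HSP70 and HSP90, 6 of 21 were higher in smooth muscle, 4 of 21 in endothelial cells and 4 of 19 in macrophages, with 1 lower in macrophages. Cacybp, a partner of a ubiquitin ligase complex, rose in endothelial cells from 0.489 and 0.462 to 1.27, 0.812 and 1.45 (1.18 ± 0.19, adjusted p = 1.85e-05) and in smooth muscle cells by 0.45 ± 0.06 (adjusted p = 0.000120). Its macrophage call (0.31, adjusted p = 0.0326) was lost without labelled replicate 1, 2 or 3 (adjusted p = 0.0815, 0.137 and 0.112). Ahsa1, which activates the ATPase of HSP90, rose in macrophages from 1.36 and 1.06 to 1.91, 1.94 and 1.88 (0.65 ± 0.10, adjusted p = 0.000203). Its calls in smooth muscle (0.27, adjusted p = 0.0212) and endothelial cells (0.54, adjusted p = 0.0468) were both lost without Apoe-/- replicate 2 (0.18, adjusted p = 0.131, and 0.46, adjusted p = 0.332) or labelled replicate 1 (0.22, adjusted p = 0.114, and 0.51, adjusted p = 0.169) or 3 (0.31, adjusted p = 0.0522, and 0.49, adjusted p = 0.174), and the endothelial one also without Apoe-/- replicate 1 (0.61, adjusted p = 0.0926). Dnajb6, a J-domain protein, was lower in macrophages (-0.31, adjusted p = 0.0175), a call lost without labelled replicate 1 (adjusted p = 0.0850) or 3 (adjusted p = 0.0709).

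Hsf1 itself, the factor that switches on the inducible set, passed in none of the main fits (whole aorta -0.17, adjusted p = 0.108). Without Apoe-/- replicate 2 it passed as lower in the whole aorta (-0.30, adjusted p = 0.00914). Hsf2, the other heat shock factor listed, was the 1 of 2 called as higher in smooth muscle cells. Hspb1, a small heat shock protein that holds unfolded clients, was lower in the whole aorta (-0.18, adjusted p = 0.0124) as were the other 4 small heat shock proteins, but it was higher in fibroblasts (1.01, adjusted p = 7.20e-05), endothelial cells (0.46, adjusted p = 1.14e-05) and smooth muscle cells (0.18, adjusted p = 0.0258). With every library given the same cell type shares, their means over the 5 libraries, its whole-aorta value was 0.22 (adjusted p = 0.0153). Its sign in the whole aorta thus turned with the weights of the cell types. The whole-aorta call was lost without labelled replicate 2 or 3 (adjusted p = 0.0662 and 0.0661), and the smooth muscle one without Apoe-/- replicate 2 (0.13, adjusted p = 0.0714) or labelled replicate 1 (0.15, adjusted p = 0.134) or 3 (0.19, adjusted p = 0.128).

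In mitochondria, Hspe1, the co-chaperonin of HSP60, was the other chaperone called in the most types, 4 of 7. It rose in endothelial cells from 2.77 and 2.57 to 4.02, 3.83 and 3.87 (0.54 ± 0.11, adjusted p = 0.000624). Calls in smooth muscle cells (0.24, adjusted p = 0.00470), fibroblasts (0.65, adjusted p = 0.00405) and T/NK cells (0.65, adjusted p = 0.0148) were all lost without labelled replicate 3 (adjusted p = 0.0522, 0.0596 and 0.299), and that in T/NK cells also without Apoe-/- replicate 2 (0.43, adjusted p = 0.125) or labelled replicate 1 or 2 (adjusted p = 0.172 and 0.228). Among 7 chaperonin subunits tested, 1 was higher in smooth muscle cells and 1, Cct2, lower in macrophages (-0.37, adjusted p = 0.0174, and lost without labelled replicate 2 or 3, adjusted p = 0.0512 and 0.117).

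Chaperones of the endoplasmic reticulum fold secreted and membrane proteins. Of 14, 5 were higher in smooth muscle cells, 4 in fibroblasts and 3 in endothelial cells with 0 lower, and in macrophages 0 were higher and 3 lower, a contrast between types that was not tested as such. Serpinh1, the collagen-specific chaperone, rose in fibroblasts from 14.9 and 14.9 to 23.94, 22.04 and 22.74 (0.62 ± 0.08, adjusted p = 0.000392) and in endothelial cells by 0.52 ± 0.09 (adjusted p = 0.000124), and its smooth muscle call (0.19, adjusted p = 0.0218) was lost without Apoe-/- replicate 2 (0.14, adjusted p = 0.0583) or on leaving out any 1 labelled replicate. Hspa5, the HSP70 of this compartment, rose in fibroblasts (0.85, adjusted p = 0.000315) and endothelial cells (0.50, adjusted p = 0.00163, and 0.31, adjusted p = 0.177, without Apoe-/- replicate 1). Calr, a lectin chaperone of glycoproteins, fell in macrophages from 8.65 and 9.57 to 6.95, 7.06 and 6.52 (-0.41 ± 0.06, adjusted p = 0.000261). Hsp90b1, the HSP90 of this compartment, was also lower there (-0.25, adjusted p = 0.0460), a call lost without Apoe-/- replicate 2 (-0.11, adjusted p = 0.300) or on leaving out any 1 labelled replicate. A pair of heat shock units stood in the promoter windows of 0 of 12 genes of this compartment, against 17.0% of all genes with a window, a contrast that was not tested.

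**Figure D5:**
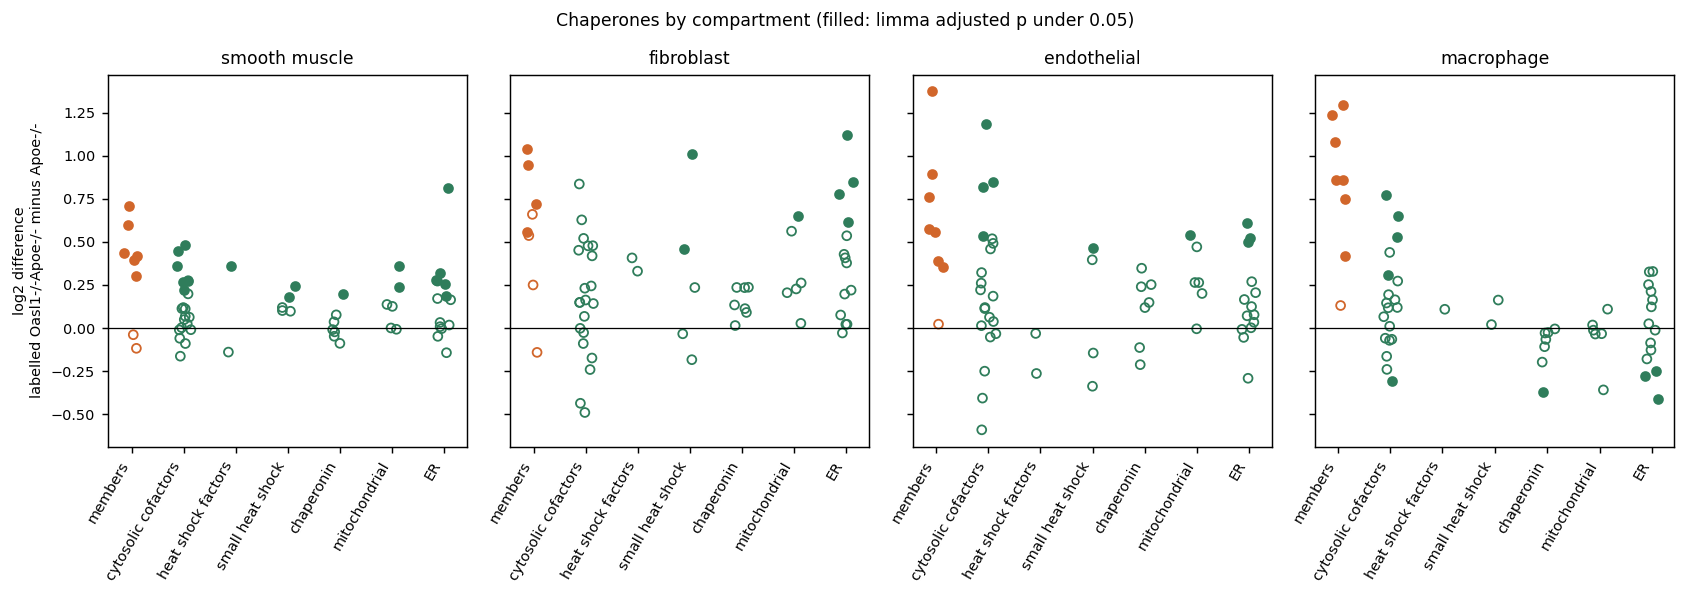
Difference (labelled Oasl1-/-Apoe-/- minus Apoe-/-, log2) of the members and of the other chaperones, grouped by compartment, in smooth muscle cells, fibroblasts, endothelial cells and macrophages, 1 point for each gene. Filled points passed the limma threshold (adjusted p under 0.05), and the endoplasmic reticulum group has filled points on the positive side in smooth muscle cells, fibroblasts and endothelial cells and on the negative side in macrophages (Calr, -0.41).

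The genes with the pattern most like Hspa1a over the 35 profiles, among 2701 genes with a mean of at least 0.5, were H2-Q4 (Pearson's r = 0.79), H2-Q6 (0.78), Ppp1r11 (0.77), Arhgap31 (0.73) and Tmpo (0.72). H2-Q4 (chr17:35379617-35385290), H2-Q6 (chr17:35424850-35430055) and Ppp1r11 (chr17:36948356-36951741) lie on the chromosome that holds Hspa1a, the first pair being class I histocompatibility genes. For Hspa8 they were Pfn1 (0.88), Ube2d3 (0.85), Arf6 (0.84), Vasp (0.83) and Slc38a1 (0.82), with positions on 5 other chromosomes. These profiles share libraries and cell types, and the values describe likeness only.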

How the data were processed

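Single-cell 3′ RNA sequencing of mouse aortic arch gave 2 Apoe-/- and 3 labelled Oasl1-/-Apoe-/- libraries, each a pool of 6 mice. Per the submitters' processing notes, reads were mapped to mm10 with Cell Ranger 3.1.0 and handled in Seurat 4.0.3, and per the study's methods the authors filtered cells on mitochondrial share and gene number. DoubletFinder had been applied by them too, and doublets were not called again. Each deposited number is a natural log, ln(1 + UMIs per 10000 UMIs of the cell). They were turned back to a linear scale, and whole UMIs were recovered for all values within a tolerance of 0.01.

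Means per library and cell type were tested as log2(mean + 0.05) with limma 3.58.1 in R 4.3.3 (empirical Bayes with a trend, Benjamini-Hochberg over all genes with a mean of at least 0.05, threshold 0.05), two-sided, in the whole aorta and in each of 7 types. The authors tested single cells instead, whereas here the library is the replicate. Cells entered a type where its relative marker score was at least 0.2 and 1.25 times the next, with at least 2 markers detected. This rule was set with the data in view, and 157 smooth muscle, 66 macrophage and 31 endothelial cells lay just inside it (up to 1.4 times) and 133, 67 and 26 just outside (down to 1.1 times). Clusters as an alternative were made with scanpy 1.11.5. The members and gene lists were chosen with earlier results of these data known, and measured values of the markers alone chose the cells. The immediate early genes were Fos, Fosb, Jun, Junb, Jund, Egr1, Egr2, Egr3, Atf3, Ier2, Ier3, Ier5, Nr4a1, Dusp1, Btg2, Zfp36, Arc, Klf6, Socs3 and Maff. Named beside the members were, from the other chaperones and the immediate early genes, up to 4 genes per list and direction called in the most types, and Hsf1, Hspa5, Hspb1, Fos and Egr1 whatever their values. Shares of cells were compared with exact two-sided permutation tests of the absolute difference of group means. The fits were tested on simulated data. Alternatives were another pseudocount, another filter or none, other totals, thinned cells, a stricter gate, clusters, and cell type shares made equal between libraries. Others were the mean of the deposited log values, voom, a replicate block, cells of low immediate early level, and leaving out each library. Promoter windows were read from RefSeq, and transcript and coding sequences from the GRCm38 genome and its annotation.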

Additional observations from a re-analysis of the deposited data

Results flagged for a closer look

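For both Hspa1a and Dnajb1 the difference between labelled Oasl1-/-Apoe-/- and Apoe-/- libraries was larger in macrophages than in smooth muscle cells by limma's test of the difference itself, over 5 libraries. For Hspa1a the difference was 1.30 in macrophages and 0.40 in smooth muscle cells, which is 0.90 ± 0.12 apart (adjusted p = 0.0168). For Dnajb1 it was 1.24 and 0.42, which is 0.82 ± 0.12 apart (adjusted p = 0.0235). Over 7 alternatives the gap stayed positive, from 0.805 to 0.992 for Hspa1a and from 0.673 to 0.878 for Dnajb1, and it passed the threshold in 2 and 1 of them. Groups of 2 and 3 libraries are too small for a test of single outlying libraries.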

How the results depend on the processing

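The number of members called as higher in the whole aorta stayed at 6 under every other setting, except when single libraries were left out (6 to 7). As lower, 2 were called there without Apoe-/- replicate 1, both HSP90 genes, and 1, Hsp90ab1, with the mean of the deposited log values (-0.17, adjusted p = 0.0494). Against 33 pairs of member and cell type called as higher, 18 were called with cells thinned to 1000 UMIs and 21 in cells of low immediate early level. With types taken from the clusters, 38 were called. Leaving out 1 library gave 26 to 34, and without Apoe-/- replicate 1 the 2 HSP90 pairs in smooth muscle cells were called as lower. The test of macrophages against smooth muscle cells called 2 members, 4 with a pseudocount of 0.2, 1 with the replicate block and 0 to 0 on leaving out a library (adjusted p from 0.0510 to 0.0924 for the 2 genes). Same-numbered libraries share a replicate number, and whether they share anything else is not given. The correlation of their deviations from the group means lay between -0.048 and 0.043. This cannot settle the question, since the deviations of 2 Apoe-/- libraries mirror each other. With the replicate block 31 pairs and 6 members in the whole aorta were called. Of the 39 called differences of members, 20 kept their call under every alternative and 39 stayed positive. The sign of Hsp90aa1 turned on leaving out single libraries, in the whole aorta (-0.15 to 0.21, the lowest without Apoe-/- replicate 1) and in smooth muscle cells (-0.23 to 0.15, the highest without Apoe-/- replicate 2). It also turned for Serpinh1 in the whole aorta with the mean of the deposited log values (-0.18), for Hspb1 (0.22) and Egr1 (0.018) there with equal cell type shares, and for Ier3 in macrophages of low immediate early level (0.35). The cause was not tested, except that equal shares change only the weights of cell types. Thinning shifted the median of all genes to 0.29 in dendritic cells and 0.16 in monocytes, and voom shifted it to -0.06 in monocytes. Only 2 Apoe-/- libraries, and under 50 dendritic cells and monocytes in each, limit what could be called.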
